A study of Mus musculus with 6 samples.

Results

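The Fc receptors of macrophages are described here across 3 vehicle and 3 purmorphamine cultures: the receptor genes Fcgr1, Fcgr2b, Fcgr3, Fcgr4, Fcgrt and Fcrls and the adaptor genes Fcer1g and Tyrobp. The 8 genes were taken by symbol from probe sets with 1 gene symbol, and all 8 were found among the 22180 named genes. Each has 1 probe set, so the rule of keeping the brightest made no choice. The family was selected on the difference between the groups, which was already known, in particular for Fcgr1 and Fcrls. The differences and adjusted p-values below therefore describe these genes and are not independent support for their direction.

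The cells were lung fibroblasts from wild-type male C57BL/6 mice aged 8 weeks, enriched from digested lung, passaged at most 3 times and split over wells. They received vehicle or purmorphamine, a small molecule agonist of Smoothened in the Hedgehog pathway, at a dose written as 5um (read as 5 µM) for 24 h. Values are log2 signals of Affymetrix arrays, 1 array per well, with array medians between 6.34 and 6.39 and upper quartiles between 8.20 and 8.24. The labels do not say that wells came from separate mice, so the spread behind every p-value is that between wells and could be technical alone. Signals of different probe sets are not on a common scale, so no gene is ranked above another by its level. Where a gene is called bright or dim, or a summed signal is given, it places the probe set roughly within its array and measures no amount of RNA.

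Receptors for the Fc part of IgG let macrophages bind antibody-coated particles and immune complexes and take them up. The activating receptors of the mouse, encoded by Fcgr1, Fcgr3 and Fcgr4, signal through the common gamma chain, the product of Fcer1g, whose cytoplasmic tail carries an immunoreceptor tyrosine-based activation motif (ITAM) that recruits the kinase Syk. The inhibitory receptor, the product of Fcgr2b, carries an inhibitory motif (ITIM) instead and recruits the lipid phosphatase encoded by Inpp5d, and the balance of both kinds sets the response of the cell.

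Of the 8 genes, 5 fell with purmorphamine and 0 rose at an adjusted p under 0.05 (limma fit over all genes, Benjamini-Hochberg adjustment). Fcrls was 4.51-fold lower and Fcgr1 3.47-fold lower, while Fcgr4 and Fcgr2b were 1.37-fold and 1.36-fold lower and Fcgr3 1.16-fold lower. Fcgrt and the adaptor genes Fcer1g and Tyrobp did not pass. Over all genes tested, 14.3% were called, 7.16% lower and 7.18% higher. In 6 of the 8 genes all purmorphamine values lay below all vehicle values, as they did in 17.1% of all genes. The median difference was -0.33 on the log2 scale for the 8 genes and -0.01 for all genes, and since the contrast was known when the family was picked, nothing is read from these counts.

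**Figure D1:**
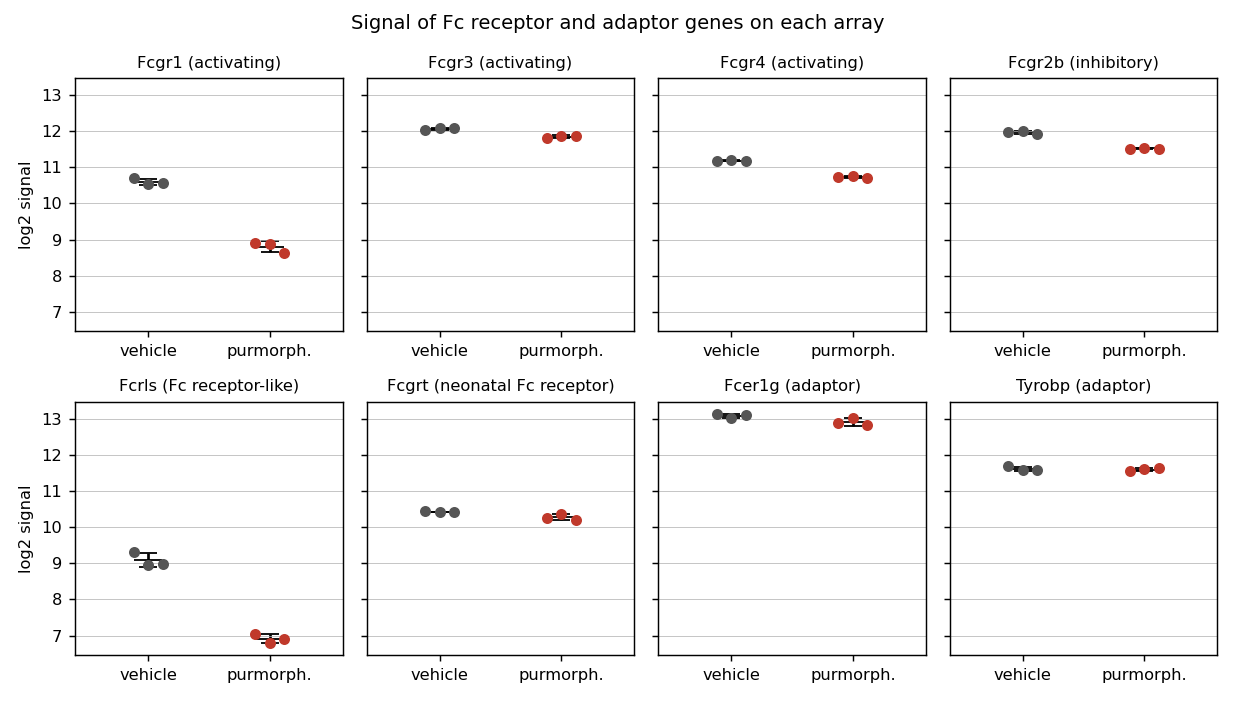
Log2 signal (y axis) of the 8 genes on each of the 3 vehicle and 3 purmorphamine arrays (points), with the group mean and SD (bars). The groups lie far apart for Fcgr1 and Fcrls, narrowly apart for Fcgr2b, Fcgr3, Fcgr4 and Fcgrt, and overlap for Fcer1g and Tyrobp.

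Fcgr1 encodes CD64, the high-affinity IgG receptor. Its log2 signal was 10.69, 10.55 and 10.56 on the vehicle arrays and 8.92, 8.86 and 8.64 on the purmorphamine arrays. The groups did not overlap, and the gap between them was many times the spread within either. The mean went from 10.60 ± 0.08 to 8.81 ± 0.15 (SD, n = 3), and the gene fell by 1.79 log2 units (95% interval -1.999 to -1.589, limma adjusted p = 8.84e-05). This was the 11th largest fall of the 22180 genes.

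Fcgr4 encodes an activating receptor of intermediate affinity for some IgG subclasses. Its signal was 11.18, 11.20 and 11.18 with vehicle and 10.73, 10.77 and 10.70 with purmorphamine. All purmorphamine values were lower, and each group was tight (SD 0.01 and 0.03). The gene fell by 0.45 log2 units (95% interval -0.57 to -0.34, limma adjusted p = 0.0016).

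Fcgr3 encodes the low-affinity activating receptor CD16. Its signal was 12.04, 12.08 and 12.08 with vehicle and 11.81, 11.87 and 11.87 with purmorphamine. The groups did not overlap, but the fall was small, 0.22 log2 units (95% interval -0.34 to -0.10, limma adjusted p = 0.030). It missed the threshold with any 1 of the 6 arrays left out, with adjusted p from 0.064 to 0.104.

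Fcgr2b encodes CD32B, the inhibitory IgG receptor. Its signal was 11.98, 11.998 and 11.92 with vehicle and 11.52, 11.53 and 11.52 with purmorphamine. Every purmorphamine array was lower, and the fall of 0.45 log2 units (95% interval -0.56 to -0.33, limma adjusted p = 0.0017) was of the same size as that of Fcgr4. The extracellular parts of the Fcgr2b and Fcgr3 proteins are nearly identical, and probes may bind transcripts of both, so these genes are uncertain as separate signals.

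Fcrls encodes an Fc receptor-like protein with a scavenger receptor domain that is used as a marker of microglia in the mouse. Its signal was 9.31, 8.96 and 8.98 with vehicle and 7.04, 6.78 and 6.91 with purmorphamine. The purmorphamine values lay a little above the array medians, a range where RMA may compress differences. The mean went from 9.09 ± 0.20 to 6.91 ± 0.13 (SD, n = 3), and the gene fell by 2.17 log2 units (95% interval -2.44 to -1.91, limma adjusted p = 1.11e-04), the 6th largest fall of all genes. With a linear offset of 50, which damps dim signals, the difference was -1.80.

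Fcgrt encodes the heavy chain of the neonatal Fc receptor, which sits in endosomes and returns IgG and albumin to the cell surface. Its signal was 10.43, 10.43 and 10.42 with vehicle and 10.26, 10.36 and 10.20 with purmorphamine. All 3 purmorphamine values were lower, but the difference of -0.16 (95% interval -0.29 to -0.02) had a limma adjusted p of 0.131. It passed with a linear offset of 50 (adjusted p = 0.048) and with a variance trend and robust fit (0.025).

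The adaptor genes were bright in both groups. Fcer1g was at 13.13, 13.01 and 13.09 with vehicle and at 12.87, 13.02 and 12.83 with purmorphamine, so that purmorphamine replicate 2 lay within the vehicle range. Its difference was -0.17 (95% interval -0.33 to -0.003, limma adjusted p = 0.171), and it passed with a variance trend and robust fit (0.020). Tyrobp encodes DAP12, the ITAM adaptor of TREM and other receptors. Its signal was 11.68, 11.59 and 11.58 with vehicle and 11.56, 11.60 and 11.63 with purmorphamine, groups that overlapped throughout. The difference was -0.02 (95% interval -0.15 to 0.11, adjusted p = 0.856), an interval that leaves room for changes of about 0.1 log2 units in either direction.

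**Figure D2:**
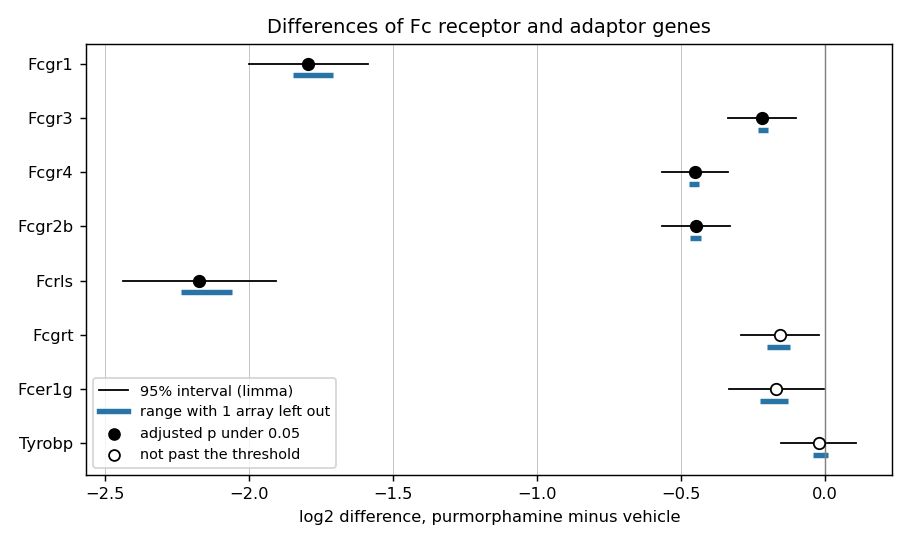
Log2 difference, purmorphamine minus vehicle (x axis), of each gene with its 95% limma interval (thin line) and its range when 1 array is left out (thick line), filled where the adjusted p was under 0.05. Fcrls (-2.17) and Fcgr1 (-1.79) stand apart from the other 6 genes, which lie between -0.45 and -0.02.

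The measured changes of the receptors were of unequal size. They are described by the log2 ratio of 2 genes on the same array, over 7 pairs. The ratio of Fcgr1 to its signalling partner Fcer1g went from -2.48 ± 0.05 to -4.10 ± 0.13 (SD, n = 3), a change of -1.63, and that of Fcgr1 to Fcgr2b changed by -1.35. The ratios of Fcgr4 and Fcgr2b to Fcer1g changed by -0.28 each. Fcgr3 fell less than the inhibitory receptor gene, with the doubt given above on telling the 2 apart: its ratio to Fcgr2b was 0.06, 0.09 and 0.16 with vehicle and 0.29, 0.34 and 0.36 with purmorphamine, a change of 0.23. In each of these 5 pairs the groups did not overlap (exact permutation test, two-sided p = 0.1, adjusted p = 0.14 over the 7 pairs). With 3 arrays against 3, a p of 0.1 is the smallest this test can give, so it cannot decide whether the changes differ. The fall of Fcgr1 was known when the family was picked, so its ratios describe that fall and are no separate support. For Fcgr4 over Fcgr2b the change was -0.005 (exact p = 0.8) and for Fcgr3 over Fcer1g -0.05 (exact p = 0.5), with overlapping groups in both.

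Promoter sequences are shown for the genes with the largest falls, Fcrls and Fcgr1, for Fcgr4, which fell less, and for Fcer1g, which was not called. Capitals mark matches to 2 motifs searched on both strands. GAGGAA (reverse complement TTCCTC), here called the PU.1 core, is a form of the sites bound by the myeloid transcription factor PU.1. The gamma-activated site TTCNNNGAA is an element found in genes that respond to interferon gamma. Sequences are those of RefSeq for build GRCm38.p6, from 250 bases before to 50 bases after the annotated start, 5′ to 3′ on the strand of the gene.
Fcgr1, chr3:96293920-96294219, strand −: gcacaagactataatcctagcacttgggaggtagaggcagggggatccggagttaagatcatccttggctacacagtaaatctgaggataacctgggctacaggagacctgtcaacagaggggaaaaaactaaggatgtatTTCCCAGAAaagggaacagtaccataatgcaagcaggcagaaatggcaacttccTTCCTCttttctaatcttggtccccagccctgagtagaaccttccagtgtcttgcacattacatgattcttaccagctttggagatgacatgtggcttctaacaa
Fcrls, chr3:87263475-87263774, strand −: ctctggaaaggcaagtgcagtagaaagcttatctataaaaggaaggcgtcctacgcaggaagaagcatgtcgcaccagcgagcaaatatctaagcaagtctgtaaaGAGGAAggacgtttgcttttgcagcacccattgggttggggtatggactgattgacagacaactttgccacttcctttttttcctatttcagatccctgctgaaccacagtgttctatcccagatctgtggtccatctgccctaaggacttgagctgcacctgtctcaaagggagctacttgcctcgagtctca
Fcgr4, chr1:171018676-171018975, strand +: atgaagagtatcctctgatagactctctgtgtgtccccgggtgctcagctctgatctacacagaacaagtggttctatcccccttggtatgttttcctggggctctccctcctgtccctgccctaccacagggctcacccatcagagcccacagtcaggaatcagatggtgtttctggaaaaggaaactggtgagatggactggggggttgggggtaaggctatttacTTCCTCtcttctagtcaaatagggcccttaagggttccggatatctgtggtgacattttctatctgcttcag
Fcer1g, chr1:171234300-171234599, strand −: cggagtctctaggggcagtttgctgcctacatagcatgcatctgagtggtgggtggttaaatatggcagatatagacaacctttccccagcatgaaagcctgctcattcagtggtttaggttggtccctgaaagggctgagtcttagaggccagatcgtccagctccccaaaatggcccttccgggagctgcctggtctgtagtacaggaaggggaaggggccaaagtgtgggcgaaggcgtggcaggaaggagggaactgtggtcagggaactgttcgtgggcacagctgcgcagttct

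The Fcgr1 window holds a gamma-activated site that begins 109 bases before the start and a PU.1 core that begins 55 bases before it. The Fcgr4 window holds a PU.1 core 22 bases before the start, and the Fcrls window a PU.1 core 144 bases before it. RefSeq promoters were at hand for 7 of the 8 genes, and the PU.1 core was present in 4 of them: Fcgr1, Fcgr3, Fcgr4 and Fcrls. The windows of Fcgr2b, Fcgrt and Fcer1g held 0 matches to either motif. Only these exact letters were searched, so other forms of a PU.1 site go unmarked in all windows. A window with 0 matches is therefore not shown to lack such a site. Among 27025 promoters of the same length, taking the first start listed for each gene, 28.3% held the PU.1 core and 8.5% the gamma-activated site. The matches overlapped in none of the 7 windows, and they describe letters only, not binding.

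By gene order in the same RefSeq assembly, Fcgr2b, Fcgr4 and Fcgr3 are direct neighbours among the protein-coding genes of chromosome 1, and Fcer1g lies beyond 7 further genes. Of these 7 genes, 6 were measured and 0 were called by limma (differences from -0.17 to 0.21). Fcrls and Fcgr1 lie apart from each other on chromosome 3. Next to Fcrls, the macrophage gene Cd5l was dim (5.00 and 4.95) and differed by -0.05, and Kirrel, on its other side, differed by 0.18. Beside Tyrobp on chromosome 7, Hcst, which encodes the related adaptor DAP10, differed by 0.04. None of these 3 neighbours passed the test, nor did those next to Fcgr1, H2bc18 (-0.32) and BC107364 (0.08). Next to Fcgrt on chromosome 7, Rcn3, which encodes a calcium-binding protein of the endoplasmic reticulum, rose by 0.62 (limma adjusted p = 8.95e-04).

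The genes whose profile over the 6 arrays was most like that of a receptor were ranked by the root mean square distance of mean-centred log2 values. For Fcgr1 these were the heat shock gene Hspa1b (distance 0.05), Slc9a9, an endosomal sodium and proton exchanger (0.07), and the purinergic receptor gene P2ry12 (0.07). Hspa1b has a nearly identical copy and is uncertain as a separate signal. For Fcrls they were Ms4a6c (0.10), the coagulation factor XIII gene F13a1 (0.14) and the arginase gene Arg1 (0.14). Only 6 genes lay within a distance of 0.1 of Fcgr1 and 0 within it of Fcrls, whereas 743 did so for Fcgr2b, 769 for Fcgr4 and 3599 for Fcgr3. Members, predicted genes, small RNAs, olfactory receptors and histones were left out of these counts. This distance depends largely on the size of the difference, which was known when the family was picked, so nothing is read from the counts. The nearest were Nup155, Kif20b and Rgs14 for Fcgr2b, Dis3, Arhgap45 and Cmtm7 for Fcgr4, and Lrrk1, Lrp5 and Rps6ka3 for Fcgr3, all at distances of 0.01 to 0.03.

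The list of ITAM kinases and adaptors includes genes, among them Pik3cg and Pik3r5, that are not specific to ITAM signalling. In this list, 8 of 26 measured genes fell and 5 rose, with a median difference of -0.03. Over all genes, 7.16% were called lower and 7.18% higher. This list and those below were chosen with earlier results known, so nothing is read from their counts. Malt1, a subunit of the complex that links Syk to NF-kB, rose by 0.90, and Pik3r5, a regulatory subunit of PI3-kinase gamma, by 0.60. The catalytic subunit gene of the same kinase, Pik3cg, fell by 0.50 and the adaptor gene Blnk by 0.65 (limma adjusted p of these 4 from 1.64e-04 to 0.0017). Pik3cd, Vav3, Plcg2, Btk, Card9 and Vav1 also fell, by 0.27 to 0.43. With 1 array left out, Vav1 was called only without vehicle replicate 2 (up to 0.062), and Btk missed the threshold without purmorphamine replicate 1 (0.0503). Bcl10, of the same complex as Malt1 and Card9, differed by -0.16 and did not pass (0.084). The other rises were those of Plcg1 (0.30), Syk itself (0.24) and Gab2 (0.21). Syk and Gab2 missed the threshold with any 1 array left out (adjusted p from 0.063 to 0.125), which left 3 rises in each of the 6 cases, and both also missed it after median centring and after quantile normalization.

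Receptors that pair with Fcer1g or Tyrobp went both ways, 7 of 18 lower and 4 higher (7.16% and 7.18% of all genes). Trem1, a receptor that amplifies inflammation through DAP12, fell by 1.70 and Trem2, a lipid-sensing receptor with the same partner, by 0.23. The C-type lectin receptor genes Clec4e, Clec4d and Clec5a rose by 0.84, 0.60 and 0.44, and Clec4n, which encodes Dectin-2, by 0.26 (limma adjusted p of these 6 from 5.62e-05 to 0.037). Trem2 missed the threshold with any 1 array left out (0.066 to 0.119) and Clec4n in 4 of 6 cases, without replicates 1 and 2 of vehicle or replicates 2 and 3 of purmorphamine (up to 0.059). With 1 array left out, the falls numbered 4 or 5 in all 6 cases, and 4 without vehicle replicate 1 or purmorphamine replicate 3. The falls of Trem1, Cd300ld (-0.63), Pilrb1 (-0.62) and Cd300lb (-0.31) were called in all 6 cases. Besides Trem2, Trem3 (-0.60) was not called without vehicle replicate 1 or purmorphamine replicate 2 or 3, and Gp6 (-0.38) was called in the case without purmorphamine replicate 2 alone.

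Genes of inhibitory signalling fell in 10 of 21 cases and rose in 1, with a median of -0.21. Inpp5d, which encodes the phosphatase SHIP1 that the product of Fcgr2b recruits, fell by 0.77, and Ptpn6, which encodes the ITIM phosphatase SHP-1, by 0.40. The ITIM receptor genes Clec4a2, Pilra and Lair1 fell by 0.94, 0.74 and 0.73 (limma adjusted p of these 5 from 2.40e-04 to 0.0030). Cd22, a sialic acid binding ITIM receptor, was the 1 rise (0.27), and it missed the threshold without vehicle replicate 2 or vehicle replicate 3 (up to 0.059). The number of falls was 10 with each of the 6 arrays left out.

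Of the actin machinery of phagocytosis, 9 of 21 genes fell and 0 rose (7.16% and 7.18% of all genes), with a median of -0.16. Coro1a, an actin regulator of leukocytes, fell by 0.71, the leukocyte GTPase gene Rac2 by 0.49, Was, the gene of the Wiskott-Aldrich syndrome protein, by 0.43 and Elmo1, of a Rac activating complex, by 0.41 (limma adjusted p from 4.75e-04 to 0.0065). The falls numbered 6 to 9 with 1 array left out. Among 4 measured subunits of the phagocyte NADPH oxidase, the membrane subunit genes Cybb and Cyba rose by 0.37 and 0.26, and the cytosolic subunit genes Ncf4 and Ncf1 fell by 0.38 and 0.31 (0.0031 to 0.014). Cyba was not called when vehicle replicate 2 or purmorphamine replicate 1 was left out (up to 0.056).

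Among partners and recycling factors of the neonatal Fc receptor, 3 of 11 fell and 1 rose (7.16% and 7.18% of all genes). B2m, the light chain of that receptor, was at 13.6 on the log2 scale and differed by 0.04 (limma adjusted p = 0.627). The recycling genes Ehd4, Ehd1 and Exoc6 fell by 0.50, 0.42 and 0.20 and the early endosome gene Rab5a rose by 0.44. Exoc6 missed the threshold with any 1 array left out (adjusted p from 0.059 to 0.132), Rab5a did so without vehicle replicate 1, vehicle replicate 2 or purmorphamine replicate 3 (up to 0.053), and Ehd1 did so with the mean of its probe sets (0.081).

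Among known regulators of Fc receptor genes, 6 of 19 fell and 1 rose (7.16% and 7.18% of all genes). C5ar1, the receptor for the complement fragment C5a, fell by 1.31, Il10ra by 0.53, Irf1 by 0.44 and Irf8 by 0.31 (limma adjusted p from 2.51e-04 to 0.0076). Irf8 was not called with the mean of its probe sets (0.473). Spi1, which encodes PU.1, fell by 0.29 and Stat2 by 0.53, and Jak2 rose by 0.24. Of the 6 fits on 5 arrays, Spi1 passed in the 1 that lacks vehicle replicate 2 and Jak2 in the 1 that lacks purmorphamine replicate 2 (adjusted p of the other cases up to 0.066 and 0.090). The interferon gamma receptor genes Ifngr1 and Ifngr2 differed by -0.05 and 0.04 and did not pass.

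Vehicle means of other Fc receptor genes ran from 3.91 to 8.35, the highest being that of Trim21. Of 12, the cytosolic antibody receptor gene Trim21 fell by 0.47 and Fcrlb by 0.31, and 0 rose (7.16% lower and 7.18% higher over all genes). Fcrlb missed the threshold with any 1 array left out (limma adjusted p from 0.051 to 0.120) and Trim21 in all cases but that without vehicle replicate 2 (up to 0.086). Fcer1a and Ms4a2, the other chains of the high-affinity IgE receptor, which also uses the common gamma chain, were at 3.91 and 4.97 with vehicle, under the lower quartile of every array (5.03 to 5.08).

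**Figure D3:**
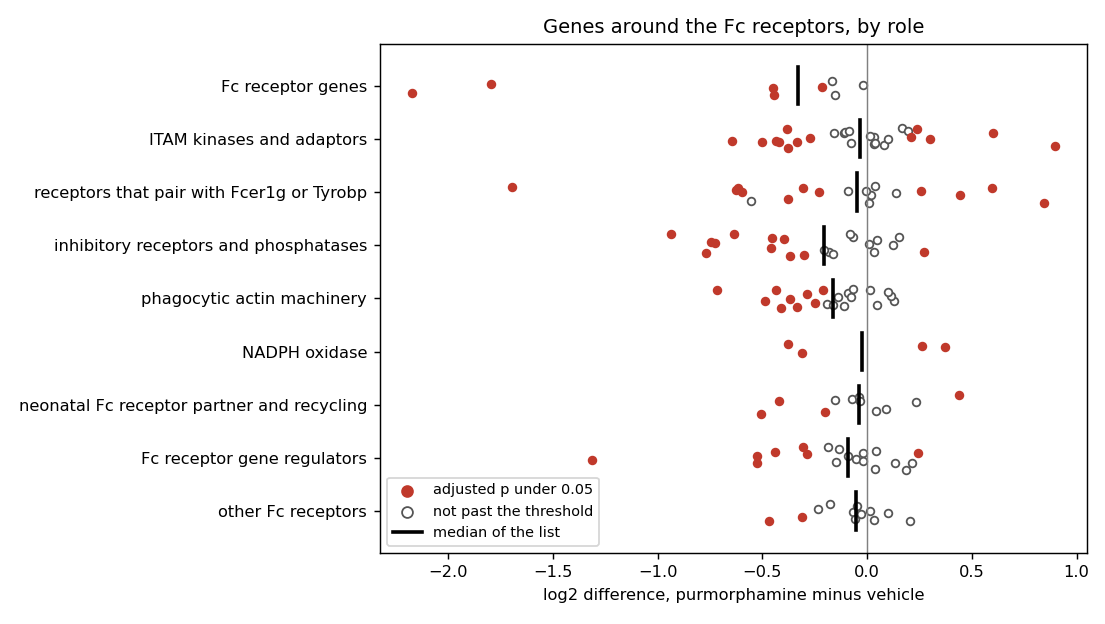
Log2 difference, purmorphamine minus vehicle (x axis), of each measured gene (points, jittered) by role, filled where the adjusted p was under 0.05, with the median of each list as a bar. Inhibitory genes (10 lower, 1 higher) and actin genes (9 lower, 0 higher) lie mostly below 0, and the partners of the adaptors lie on both sides (7 lower, 4 higher). Over all genes, 7.16% were called lower and 7.18% higher.

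The activating and inhibitory IgG receptors are typical of leukocytes, and the cultures, labelled as lung fibroblasts, expressed markers of both macrophages and fibroblasts. Some endothelial and epithelial markers were bright too, as given below. Of fibroblast markers, Col1a1 and Fn1 were at 12.8 and 13.7 with vehicle, and 8 of 11 rose and Thy1 fell, with a median of 0.46. With 1 array left out, 6 to 8 rose. Lum missed the threshold in all 6 cases and Col1a1 in 4 (limma adjusted p up to 0.095 and 0.060). Of macrophage markers, Lyz2 and Cd68 were at 14.0 and 13.2, and 12 of 25 fell and 1 rose, with a median of -0.28. Over all genes, 7.16% were called lower and 7.18% higher, and nothing is read from the counts of markers here and below. Itgam fell by 1.46 and the complement genes C1qa, C1qc and C1qb by 1.35, 1.34 and 1.30, Csf1r by 0.63 and Adgre1, the F4/80 gene, by 0.38. Itgax rose by 0.31, and 5 markers rose with a variance trend and robust fit or with a linear offset of 50. Lyz2 (0.05), Cd68 (0.13), Mpeg1 (0.03), Ptprc (0.07) and Mertk (-0.02) did not pass the test. The falls of Fcgr1 and Fcrls, known when the family was picked, exceeded those of all 25 macrophage markers. Genes outside that list had falls of similar size, among them Ms4a6c (-2.21), F13a1 (-2.16) and Arg1 (-2.03).

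The summed linear signal of the macrophage markers, as log2, lay between 16.51 and 16.54 with vehicle and between 16.35 and 16.38 with purmorphamine. That of the fibroblast markers lay between 14.88 and 14.92 and between 15.10 and 15.17. The part of these shifts in the differences of the Fc receptor genes was not tested. In such bulk cultures, fewer cells of a type and less RNA per cell cannot be told apart.

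Of 7 microglia markers, P2ry12 fell by 1.84, P2ry13 by 1.17 and Gpr34 by 0.60, and Olfml3 rose by 0.40. Siglech (6.40 with vehicle), Sall1 (5.49) and Tmem119 (6.995) did not pass the test. With 1 array left out, Gpr34 missed the threshold in 4 of 6 cases, without replicates 1 and 2 of vehicle or 1 and 3 of purmorphamine, and Olfml3 passed only without vehicle replicate 3 (limma adjusted p up to 0.063 and 0.079). Markers of B cells (4 measured), T cells (5) and NK cells (5) had vehicle means of 6.61 or less, mast cell markers (4) of 5.17 or less, and 0 of them were called. Neutrophil markers (6) reached 8.17, for Cxcr2, and of dendritic cell markers (5) Cd209a was bright at 10.04, again with 0 called. Vehicle means of 6 endothelial markers ran from 6.29 to 10.46, the highest being that of Emcn, and Cdh5 and Tie1 rose by 0.34 and 0.36. Cdh5 was not called without purmorphamine replicate 2 or 3 (up to 0.053), nor Tie1 without vehicle replicate 2 or 3 or purmorphamine replicate 1 or 3 (up to 0.104). Those of 7 epithelial markers ran from 5.89 to 10.61, the highest being that of Krt18, and Epcam rose by 0.50.

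**Figure D4:**
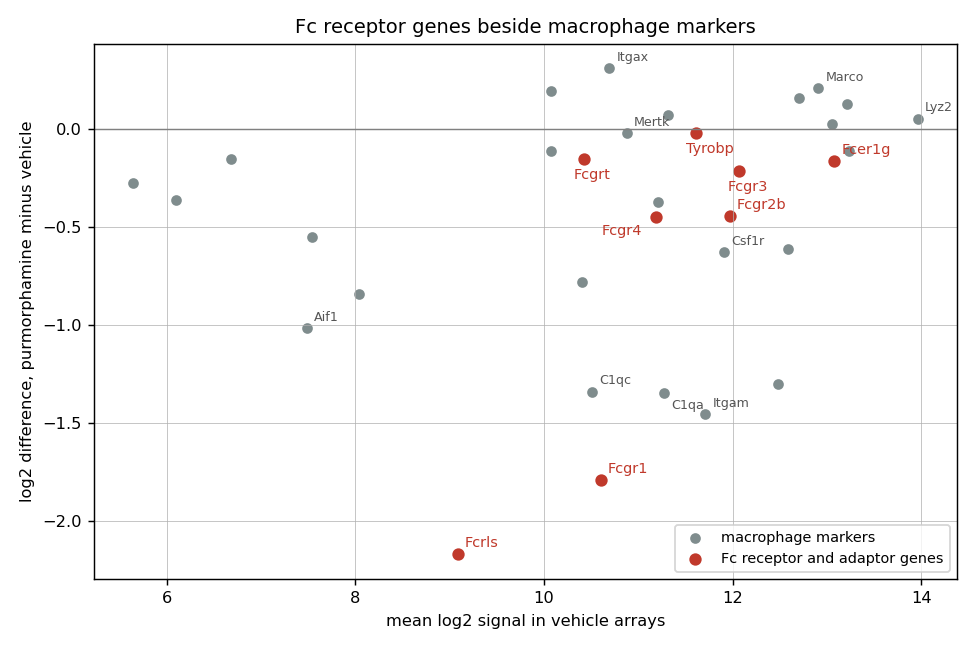
Mean log2 signal with vehicle (x axis) against the log2 difference, purmorphamine minus vehicle (y axis), for the 8 Fc receptor and adaptor genes and the 25 macrophage markers. Fcgr1 and Fcrls, picked with their falls known, lie below all 25 markers. Fcgr2b, Fcgr3, Fcgr4, Fcgrt and the adaptor genes lie among the markers, between -0.45 and -0.02.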

How the data were processed

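RNA of 6 wells was hybridised to Affymetrix arrays after reverse transcription of 100 ng total RNA from a poly(T) primer and amplification, per the labels' protocols. The authors' deposited values are log2 signals, 1 per probe set and array. Per the submitters' processing notes, the tools were RMA, oligo and limma. No version of them is stated there. RMA gives the probe intensities of all arrays 1 distribution before they are combined per probe set, and compresses dim differences. Of 41345 probe sets, 23521 had 1 gene symbol in the platform annotation, and the brightest per gene was kept (22180 genes). Purmorphamine minus vehicle was fitted on all 6 arrays with lmFit and eBayes of limma 3.58.1 (R 4.3.3). Tests were two-sided, p-values were adjusted by Benjamini-Hochberg for all genes together, and those under 0.05 were calls. The median SE of a difference was 0.07, and the number of arrays limits precision. The steps were tested on simulated data.

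Members and gene lists were chosen with earlier results of these data known. Named are all 8 members, up to 4 called genes with the smallest p in each list, genes behind small counts, and the 3 genes nearest to each called member. Predicted genes, small RNAs, olfactory receptors and histones were left out of the last. Further list genes were named after their values were seen. Python 3.11.15 was used for motif searches and plots.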

Additional observations from a re-analysis of the deposited data

How the results depend on the processing

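Refits changed 1 choice each: a replicate block, a variance trend with a robust fit, median centring of arrays, quantile normalization, an added linear signal of 50, the removal of the dimmest genes (a share of 0.333), averaging of probe sets by gene, a test per named probe set, and the omission of each array. Of 112 refits of the 8 genes, 102 kept the side of the threshold, 7 lost a call and 3 gained one. All 7 losses were those of Fcgr3: with 1 array left out (log2 difference -0.23 to -0.20), and with the replicate block (adjusted p = 0.066), where 4 of the 8 genes were called lower. The gains were those of Fcer1g and Fcgrt given with their values. Fcgr1 stayed called at -1.85 to -1.69, Fcgr2b at -0.47 to -0.43, Fcgr4 at -0.47 to -0.44 and Fcrls at -2.24 to -1.80. With 1 array left out, 4 of the 8 genes were called lower in each of the 6 cases, and over all genes 897 to 1168 were called higher and 1057 to 1206 lower, against 1593 and 1588. A variance trend with a robust fit called 2416 genes higher. With the replicate block, 1193 genes were called higher and 1239 lower. Of 90 called genes of the lists, 11 missed the threshold with that block (adjusted p from 0.052 to 0.0938): Syk, Gab2, Trem2, Gp6, Rac1, Cfl1, Exoc6, Jak2, Cdh5, Fcrlb and Trim21. Same-numbered wells deviated from their group means with correlations of 0.106, 0.024 and 0.103, each the highest for its number, which is a hint from the data and not taken as a pairing. The change of the Fcgr4 to Fcgr2b ratio ranged from -0.03 to 0.0001 over scalings, and changes of the other ratios kept their sign. Dim signals may limit the measured size of the fall of Fcrls, whose purmorphamine values lay a little above the array medians.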
